A study of Homo sapiens with 4 samples.

Results

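Core spliceosome proteins are the Sm and Lsm proteins, the subunits of SF3A and SF3B and the PRPF proteins that build the machine which removes introns from pre-messenger RNA. Their transcripts were chosen by a rule on the gene symbol: any symbol without a hyphen made of SNRP, SF3A, SF3B, LSM or PRPF and the letter or number of the subunit. This gave 46 of the 25411 gene rows, 13 of them SNRP, 9 SF3A or SF3B, 11 LSM and 13 PRPF. RNA was sequenced from BEAS-2B, a long-established human cell line derived from bronchial epithelium, in 2 libraries grown with 5 µM cadmium chloride for 72 h and 2 control libraries grown for 72 h without it. No genotype, transgene or further agent is given for either group. The labels place the cadmium libraries under experiment 2 and the controls under experiment 1, so if these were separate experiments, treatment and experiment cannot be told apart. The labels do not say whether replicates came from separate cultures, and every p-value therefore reflects library-to-library spread that could be technical.

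The spliceosome is built from small nuclear ribonucleoproteins (snRNPs), each a small nuclear RNA wrapped in a ring of Sm proteins or, for U6, of Lsm proteins. U1 marks the 5′ splice site, U2 with SF3A and SF3B binds the branch point, and the U4/U6.U5 tri-snRNP then joins before the complex rearranges around its PRPF8 core and cuts the RNA. In humans, inherited changes in several tri-snRNP proteins, PRPF8 and PRPF31 among them, cause retinitis pigmentosa, and acquired changes in SF3B1 are common in myelodysplasia.

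Reads assigned to genes numbered 29937242 and 15537382 in cadmium replicates 1 and 2, against 26529403 and 8609243 in control replicates 1 and 2. Replicates were not copies of each other, since the chi-square averaged 7.35 over genes for the cadmium pair and 11.3 for the control pair. As a check of the labels, the metallothionein gene MT2A, whose product binds cadmium and zinc, rose by 3.40 on the log2 scale in the cadmium libraries. Airway epithelial markers were mixed, as KRT7, KRT8 and KRT18 were abundant, TP63 had 0 reads in every library and KRT5, KRT14, KRT19 and CDH1 were at or near 0. The summed level of the 11 epithelial markers was 1206 and 1271 CPM (read counts scaled to library size) in the cadmium libraries, against 1291 and 1514 CPM in the controls. Within that sum, KRT7 fell by 1.02 in log2 units (adjusted p = 0.00234). EPCAM rose by 1.36 (adjusted p = 0.0131) and KRT15 by 2.56 (adjusted p = 0.0246), and 4 of the 7 tested did not pass. KRT15 had 31 and 11 reads with cadmium, against 4 and 1 in control, so its change rests on few reads. The summed level of 7 fibroblast markers was 3451 and 3275 CPM with cadmium, against 4543 and 3724 CPM in control. Nearly all of it was COL1A1, with DCN and COL3A1 at 0. PDGFRB had 186.7 and 205.2 CPM with cadmium, against 161.8 and 184.6 CPM in control. Of the 3 fibroblast markers tested, 0 passed. The sum of 5 leukocyte markers was 11.3 and 7.53 CPM against 6.84 and 11.4 CPM. Nearly all of that was CD14, with CD3E and LYZ among those at 0. For 5 endothelial markers, with PECAM1 at 0, the sum was 3.79 and 3.48 CPM against 1.31 and 1.19 CPM. The 1 tested, TIE1, rose by 1.68 (adjusted p = 0.0160). The part of these markers in the members' values was not tested.

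Transcripts of 10 members had a lower relative level in the cadmium libraries than in the controls. Of 44 members tested, 10 fell, 0 rose and 34 did not pass (edgeR, Benjamini-Hochberg adjusted p under 0.05 over all 13663 genes tested). Over all tested genes 7.66% fell and 8.85% rose, whereas 22.7% of the members fell. The 10 were SNRPB, SNRPD1, SNRPF and SNRPG of the Sm ring, SNRPC of U1, SF3B5 of U2, LSM5 and LSM7 of the U6 ring, LSM10 of the histone-processing U7 particle and PRPF31 of the tri-snRNP. Their log2 fold changes ran between -0.53 and -0.31, a level 30.6% to 19.4% below the controls. DESeq2, limma-voom and every other alternative also found 0 members higher, and 3 members had both cadmium libraries above both controls. In bulk RNA fewer cells of a type and less RNA per cell cannot be told apart.

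The shift was broader than the calls but small. The median log2 fold change of the 44 members was -0.16, against 0.0019 for all tested genes, and 36 of the 44 values were below 0, or 81.8% against 49.8% of all genes. Both cadmium libraries lay below both controls for 28 of 44 members (63.6%), where 30.8% of all genes did so, and above both for 3 (6.82%), where 31.3% did so. In the remaining 13 the groups overlapped. Members took 0.612% and 0.645% of the reads in genes in the cadmium libraries, against 0.671% and 0.679% in the controls. That share does not overlap between the groups, but with 2 libraries against 2 the smallest p an exact permutation test can give is 0.333.

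**Figure D1:**
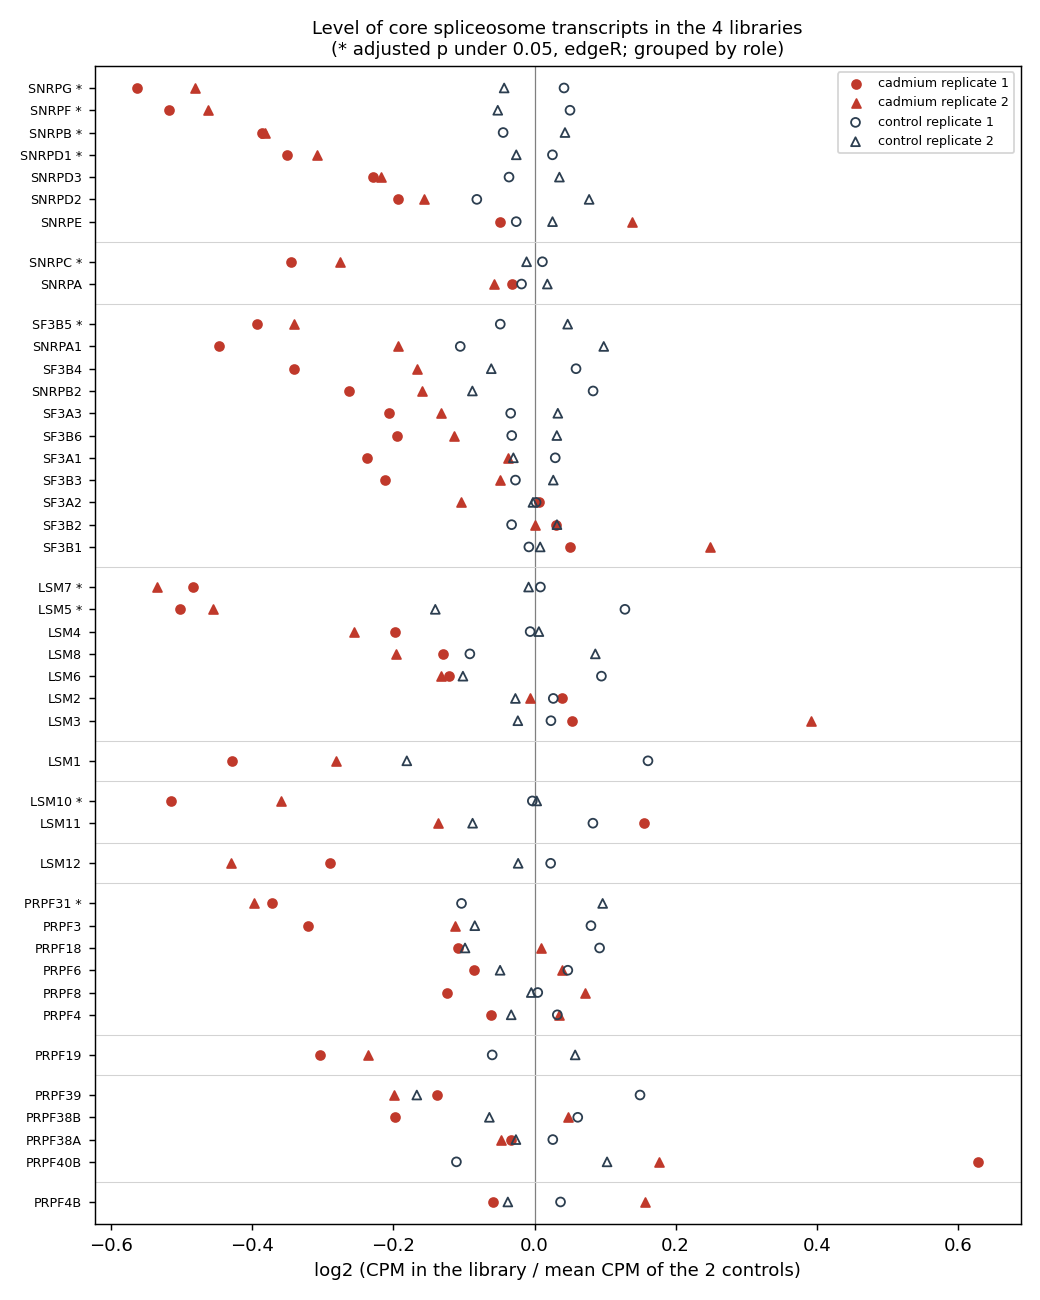
Level of 43 tested transcripts in the 4 libraries, as log2 of its CPM over the mean CPM of the 2 controls (horizontal axis), with genes listed by role down the page, filled red symbols for cadmium and open dark symbols for control libraries, and a star for adjusted p under 0.05. Most red symbols lie left of 0, those of SNRPG, LSM7 and SNRPF farthest, while PRPF40B and LSM3 lie to the right without passing the test.

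The Sm core is the 7-membered ring that assembles on U1, U2, U4 and U5 RNA, and 4 of its 7 tested subunits fell. Those 4 were 57.1%, against 7.66% of all tested genes. The summed level of the 7 was 1314 and 1336 CPM in the cadmium libraries, against 1610 and 1699 CPM in the controls. SNRPG (chromosome 2, 70508506 to 70520869 in hg19, minus strand), the SmG subunit, had 32.9 and 34.8 CPM in cadmium replicates 1 and 2, against 50.01 and 47.16 CPM in control replicates 1 and 2. The groups were well apart, and SNRPG fell by 0.53 in log2 units (SE 0.10, adjusted p = 0.0152, edgeR). SNRPF (chromosome 12, 96252709 to 96260238, plus strand), which encodes SmF, had 54.9 and 57.0 CPM with cadmium, against 81.4 and 75.8 CPM in control. Again each cadmium library was below each control, and SNRPF fell by 0.49 (SE 0.095, adjusted p = 0.0137). SmF and SmG sit side by side with SmE in the assembling ring.

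SNRPB (chromosome 20, 2442281 to 2451499, minus strand) encodes the SmB and SmB' proteins and was the most abundant member per length. It had 716.4 and 718.8 CPM in the cadmium libraries, against 907.8 and 964.7 CPM in the controls. The 2 cadmium values were almost equal and below both controls, and SNRPB fell by 0.38 (SE 0.075, adjusted p = 0.0144). SNRPD1 (chromosome 18, 19192230 to 19210206, plus strand), encoding SmD1, stood at 64.6 and 66.5 CPM with cadmium, against 83.8 and 80.9 CPM in control, and fell by 0.33 (SE 0.090, adjusted p = 0.0407). The groups did not overlap there either.

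The other Sm subunits did not pass. SNRPD3 (log2 fold change -0.22, adjusted p = 0.0938) and SNRPD2 (-0.17, adjusted p = 0.187) had both cadmium libraries below both controls. SNRPE, which encodes SmE, the ring neighbour of SmF and SmG, had 42.1 and 47.9 CPM with cadmium, against 42.8 and 44.3 CPM in control. Its cadmium values lay on either side of the controls (log2 fold change 0.046, adjusted p = 0.805). SNRPN, the neuronal paralogue of SNRPB from an imprinted locus that it shares with SNURF, had 5 and 0 reads with cadmium, against 1 and 3 in control, and was too low to test. SNRPD2P2, a pseudogene that the symbol rule caught, had 0 reads in every library.

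Reads of some of these transcripts may be shared with near-identical copies, which makes their counts uncertain. GENCODE v29 names 20 pseudogenes of SNRPG, 18 of SNRPC, 9 of SNRPE, 4 each of SNRPF and LSM3, and 1 of SNRPB. How multiply matching reads were counted is not given in the sources used here.

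Upstream sequence was read for members whose RefSeq start site could be placed, since several members fell together. The windows hold 250 bases before and 50 after the start site in RefSeq GRCh38.p14, written 5′ to 3′ on the gene's strand. They show SNRPB, the most abundant member that fell, SNRPF and LSM7, also lower, and SNRPD2, an Sm gene that did not pass. Capitals mark CCGGAAG, the core of an ETS site, and CCAAT, the box bound by NF-Y, on either strand. They lie at chr20:2470740-2471039 (minus strand) for SNRPB, chr12:95858702-95859001 (plus) for SNRPF, chr19:2328537-2328836 (minus) for LSM7 and chr19:45692267-45692566 (minus) for SNRPD2.
SNRPB: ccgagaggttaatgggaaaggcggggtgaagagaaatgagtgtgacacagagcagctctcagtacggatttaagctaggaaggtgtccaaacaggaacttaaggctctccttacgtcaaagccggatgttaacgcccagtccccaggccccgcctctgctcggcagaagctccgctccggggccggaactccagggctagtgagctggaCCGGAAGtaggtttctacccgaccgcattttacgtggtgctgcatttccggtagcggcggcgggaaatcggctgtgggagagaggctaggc
SNRPF: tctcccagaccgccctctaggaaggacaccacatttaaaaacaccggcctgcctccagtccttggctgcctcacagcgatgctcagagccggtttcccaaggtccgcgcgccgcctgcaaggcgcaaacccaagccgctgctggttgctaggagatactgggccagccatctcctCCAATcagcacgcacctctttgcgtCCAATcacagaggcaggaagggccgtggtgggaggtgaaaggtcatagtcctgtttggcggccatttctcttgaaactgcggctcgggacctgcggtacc
LSM7: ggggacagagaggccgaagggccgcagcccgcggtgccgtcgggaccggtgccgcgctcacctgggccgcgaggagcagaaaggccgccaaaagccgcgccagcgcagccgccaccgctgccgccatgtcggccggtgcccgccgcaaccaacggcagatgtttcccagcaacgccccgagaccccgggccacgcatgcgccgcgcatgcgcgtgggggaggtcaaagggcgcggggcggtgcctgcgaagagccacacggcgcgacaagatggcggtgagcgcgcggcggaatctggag
SNRPD2: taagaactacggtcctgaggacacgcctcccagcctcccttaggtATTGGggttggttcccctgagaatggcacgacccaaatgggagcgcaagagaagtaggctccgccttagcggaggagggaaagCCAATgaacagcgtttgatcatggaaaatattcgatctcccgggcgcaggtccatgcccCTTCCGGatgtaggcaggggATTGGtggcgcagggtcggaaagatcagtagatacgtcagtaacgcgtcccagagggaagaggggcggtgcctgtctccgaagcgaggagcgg
SNRPB held a CCGGAAG starting at -41 from the start site, SNRPF CCAAT at -75 and -50, and LSM7 neither. SNRPD2 held CCAAT at -205, -122 and -43 and CCGGAAG at -63. Of the 44 tested members 33 had such a window, and CCGGAAG was present in 15 of them (45.5%), against 19.4% of 8801 tested genes with a window and 10.7% of 24987 RefSeq promoters. It was in 3 of the 8 members that fell and in 12 of the 25 that did not pass. CCAAT was in 13 of 33 (39.4%), against 37.1% of tested genes and 36.1% of all promoters, and in 4 of the 8 that fell. The E-box CACGTG, searched on both strands like the others and overlapping neither, was found in SF3B1 alone, or 3.03% of the windows against 10.3% of tested genes and 7.42% of all promoters. These are matches of letters, and the data hold no measure of binding.

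Of the U1 proteins, SNRPC fell and SNRPA did not pass. SNRPC (chromosome 6, 34724871 to 34741634, plus strand) encodes U1-C, a zinc finger protein that steadies the pairing of U1 with the 5′ splice site. It had 100.4 and 105.4 CPM in the cadmium libraries, against 128.6 and 126.6 CPM in the controls, and fell by 0.31 (SE 0.083, adjusted p = 0.0390) with no overlap. SNRPA, which encodes U1-A and binds a stem-loop of U1 RNA, had 170.2 and 167.3 CPM with cadmium, against 171.9 and 176.3 CPM in control. Its groups nearly touched, and its log2 fold change of -0.044 turned positive when libraries were scaled by total reads, by level or by gene length.

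Among 11 U2 proteins SF3B5 fell (9.09%, near the 7.66% of all tested genes), 0 rose and 10 did not pass. SF3B5 (chromosome 6, 144416018 to 144416754, minus strand) encodes the small SF3b10 subunit that packs against SF3B1 and SF3B3. It had 143.8 and 149.0 CPM with cadmium, against 182.5 and 195.0 CPM in control. Each cadmium library was below each control, and SF3B5 fell by 0.37 (SE 0.083, adjusted p = 0.0226). SF3B4, an RNA-binding subunit, had 103.0 and 116.2 CPM with cadmium, against 135.9 and 125.1 CPM in control, and did not pass (log2 fold change -0.26, adjusted p = 0.102, and -0.16 without cadmium replicate 1). SNRPA1 (-0.31, adjusted p = 0.149) and SNRPB2 (-0.22, adjusted p = 0.172), which encode the U2 proteins U2-A' and U2-B'', also had groups that did not overlap.

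The large scaffold subunits of U2 did not pass. SF3B2 had 371.5 and 363.8 CPM with cadmium, against 355.6 and 371.8 CPM in control, with overlapping groups and a log2 fold change of 0.016 (adjusted p = 0.906). SF3B1, the clamp around the branch point and a target of splicing inhibitors, had 174.8 and 200.7 CPM with cadmium, against 167.9 and 169.7 CPM in control. Both cadmium values were above both controls, without passing (log2 fold change 0.15, SE 0.092, adjusted p = 0.281), and over the refits the value ranged from 0.052 to 0.25. The deposited row for SF3B1 spans 198283521 to 198299771 of chromosome 2, which covers part of the gene. Its CPM may therefore not stand for the whole transcript. SF3A1, SF3A2, SF3A3, SF3B3 and SF3B6 lay between -0.17 and -0.047 and did not pass.

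The ring of LSM2 to LSM8 caps the 3′ end of U6 RNA in the nucleus, and 2 of its 7 subunits fell. Those 2 were 28.6%, against 7.66% of all tested genes. LSM7 (chromosome 19, 2321520 to 2328614, minus strand) had 89.9 and 86.8 CPM with cadmium, against 126.4 and 125.0 CPM in control. The replicates were close and the groups far apart, and LSM7 fell by 0.51 (SE 0.084, adjusted p = 0.00952), the smallest adjusted p of the members. LSM5 (chromosome 7, 32524945 to 32534870, minus strand) had 16.2 and 16.7 CPM with cadmium, against 25.0 and 20.8 CPM in control. Its controls were spread more widely than its cadmium libraries, and it fell by 0.49 (SE 0.14, adjusted p = 0.0474). LSM4, the subunit with a long arginine- and glycine-rich tail, had 238.2 and 228.9 CPM with cadmium, against 272.0 and 274.4 CPM in control, with no overlap (log2 fold change -0.23, adjusted p = 0.0758).

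The rest of the ring differed among themselves without passing. LSM2 had overlapping groups and a log2 fold change of 0.016 (adjusted p = 0.926). LSM3 had 40.6 and 51.3 CPM with cadmium, against 39.8 and 38.5 CPM in control, so that 1 cadmium library stood well above the controls and the other just above them (log2 fold change 0.22, SE 0.13, adjusted p = 0.269), and over the refits the value ranged from 0.053 to 0.39. LSM6 and LSM8 stood at -0.14 and -0.15. LSM1, which replaces LSM8 in the cytoplasmic ring that promotes decapping of messenger RNA, had 16.1 and 17.8 CPM with cadmium, against 24.2 and 19.1 CPM in control. The widely spaced controls were both above the cadmium values, and the log2 fold change of -0.38 (SE 0.15) had an adjusted p of 0.127. It was -0.18 without control replicate 1 and -0.53 without control replicate 2, where it passed (adjusted p = 0.0117).

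LSM10 and LSM11 replace SmD1 and SmD2 in the U7 particle, which cuts the 3′ end of replication-dependent histone transcripts. LSM10 (chromosome 1, 36859031 to 36863493, minus strand) had 37.8 and 42.1 CPM with cadmium, against 53.9 and 54.2 CPM in control. The controls were almost equal and above both cadmium libraries, and LSM10 fell by 0.44 (SE 0.10, adjusted p = 0.0271). LSM11 had 14.3 and 11.7 CPM with cadmium, against 13.6 and 12.1 CPM in control, with overlapping groups (log2 fold change 0.013, adjusted p = 0.967). LSM12, a protein with an Lsm domain that is not a subunit of these rings, had 13.3 and 12.1 CPM with cadmium, against 16.6 and 16.0 CPM in control (log2 fold change -0.36, SE 0.14, adjusted p = 0.124).

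Among 6 proteins of the tri-snRNP and its catalytic remodelling PRPF31 fell (16.7%, against 7.66% of all tested genes). PRPF31 (chromosome 19, 54618790 to 54635150, plus strand) bridges U4/U6 to U5. It had 122.2 and 120.1 CPM with cadmium, against 147.2 and 169.1 CPM in control, with every cadmium value below every control, and fell by 0.38 (SE 0.094, adjusted p = 0.0299). Its row overlaps TFPT on the opposite strand by 266 bases. TFPT had 1262 and 589 reads with cadmium, against 1279 and 433 in control (log2 fold change -0.35, adjusted p = 0.0552), and without a stated strand setting reads of that overlap cannot be told apart.

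PRPF8, the scaffold that holds the catalytic RNA, had 1098.5 and 1258.8 CPM with cadmium, against 1201.2 and 1193.6 CPM in control. The cadmium libraries lay on either side of the near-equal controls, and the log2 fold change of -0.023 (SE 0.085, adjusted p = 0.878) changed sign with the scaling. PRPF3, PRPF4, PRPF6 and PRPF18 had log2 fold changes between -0.22 and -0.016 and did not pass. The 6 transcripts summed to 1511 and 1697 CPM with cadmium, against 1676 and 1667 CPM in control, so the groups overlapped.

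PRPF19, the ubiquitin ligase at the head of the complex that activates the spliceosome, narrowly missed the threshold. It had 301.9 and 316.8 CPM with cadmium, against 357.8 and 388.2 CPM in control, with no overlap (log2 fold change -0.27, SE 0.081, adjusted p = 0.0551). Of the 5 B complex and U1-associated proteins 0 passed with edgeR, DESeq2 or limma-voom. An unadjusted edgeR p under 0.05 was found for 0 of them, against 4642 of all 13663 tested genes. PRPF40B, a low-abundance U1-associated protein, had 14.4 and 10.5 CPM with cadmium, against 8.60 and 9.98 CPM in control. Both cadmium values were higher, cadmium replicate 1 by far, but the log2 fold change of 0.45 (SE 0.20) did not pass (adjusted p = 0.152). It was 0.19 without cadmium replicate 1, and its row overlaps FMNL3 on the opposite strand by 6729 bases. PRPF4B, a kinase that phosphorylates tri-snRNP proteins, had 75.7 and 88.0 CPM with cadmium, against 80.9 and 76.9 CPM in control (log2 fold change 0.048, adjusted p = 0.784), a sign that turned with length-dependent scaling.

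By name family, 5 of 11 tested SNRP genes fell (median log2 fold change -0.31), 1 of 9 SF3A and SF3B genes (-0.14), 3 of 11 LSM genes (-0.23) and 1 of 13 PRPF genes (-0.043). The PRPF median turned to 0.016 with libraries scaled by their totals alone, while the other medians kept their sign under every scaling. Beside the 7.66% of all genes that fell, 7.69% of the PRPF genes and 11.1% of the SF3A and SF3B genes is near the background, so these counts say nothing particular of those families. Whether the families differ from one another was not tested.

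**Figure D2:**
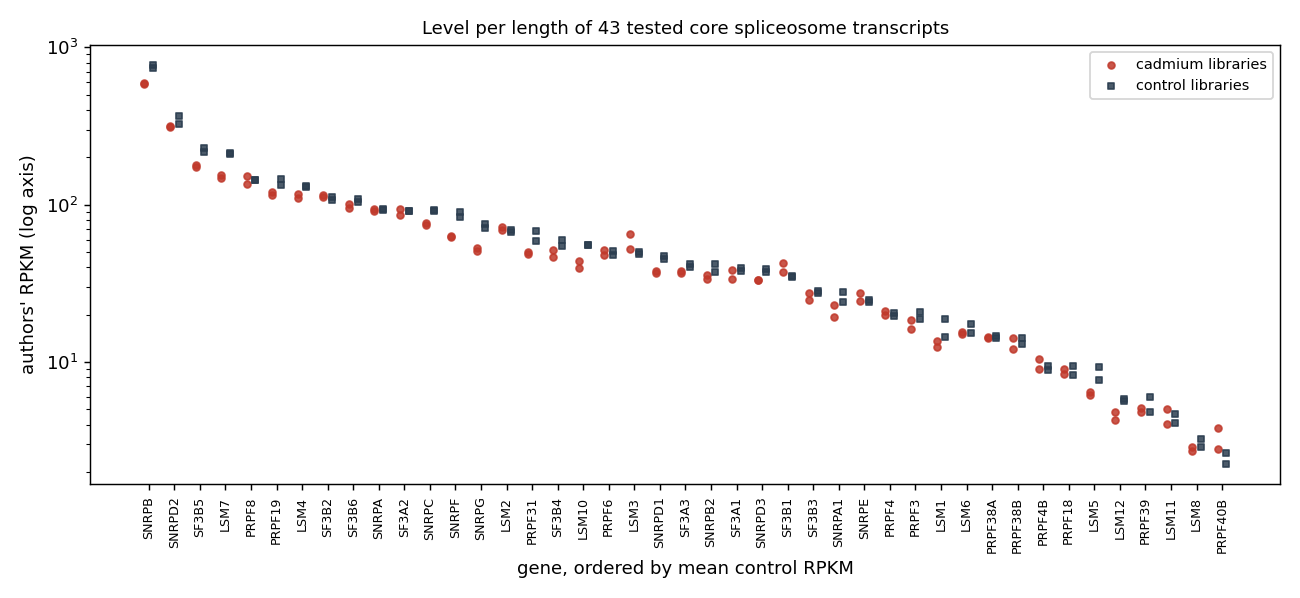
The authors' RPKM (reads scaled to gene length and library size, log axis) of 43 tested transcripts in each library, ordered along the horizontal axis by mean control RPKM, with cadmium libraries as red circles left of control libraries as dark squares. SNRPB stands highest at a mean of 589 RPKM with cadmium and 755 RPKM in control, and the members that fell are spread over most of the range.

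Levels between genes were compared per length, with the authors' RPKM, in which partner subunits of 1 ring differed widely. Such levels depend on the length behind the RPKM and on how reads shared with pseudogenes were counted, which is not given. Next after SNRPB came SNRPD2 at a mean of 312 RPKM with cadmium and 345 RPKM in control, SF3B5 at 177 and 223, and LSM7 at 151 and 211. Cadmium libraries had 143.7 RPKM of PRPF8 and controls 143.0 RPKM. In the Sm ring the lowest tested subunit was SNRPE, at 25.9 RPKM with cadmium and 24.5 RPKM in control. LSM8 was among the lowest of all at 2.80 and 3.07 RPKM, a value that rests on a length of 14.2 kb, the longest of the members. Across the 44 members the Spearman rho of mean control CPM with log2 fold change was -0.0385, given as a description.

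Members that fell were mostly short transcripts, and short transcripts were lower in these libraries in general. Of 10 members with a length under 1 kb behind their RPKM 5 fell, of 10 between 1 and 2 kb 3, of 15 between 2 and 4 kb 2, and of 9 over 4 kb 0. The same classes over all genes had 15.6%, 12.9%, 7.76% and 4.06% lower, and 2.64%, 4.18%, 7.76% and 12.96% higher. Median log2 fold changes of the members by class were -0.27, -0.26, -0.19 and -0.079, and of all genes -0.15, -0.096, -0.021 and 0.080. Across genes the rank correlation of length with log2 fold change was 0.468 over the 44 members and 0.207 over all 13663, as a description. In an edgeR fit with libraries scaled by gene length, LSM7, PRPF31 and SNRPB of the 10 remained lower, with LSM7 at -0.33. SF3B3 was added with an adjusted p of 0.0273. In that fit 4 of the 44 members and 942 of all 13663 genes were lower, against 10 members and 1046 genes as reported. The other 7 of the 10 had adjusted p from 0.0534 to 0.158 there. Among them LSM5 stood at -0.47 on the log2 scale, while SF3B5 was at -0.21, SNRPC at -0.19, LSM10 at -0.29, SNRPD1 at -0.25, SNRPF at -0.34 and SNRPG at -0.35.

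**Figure D3:**
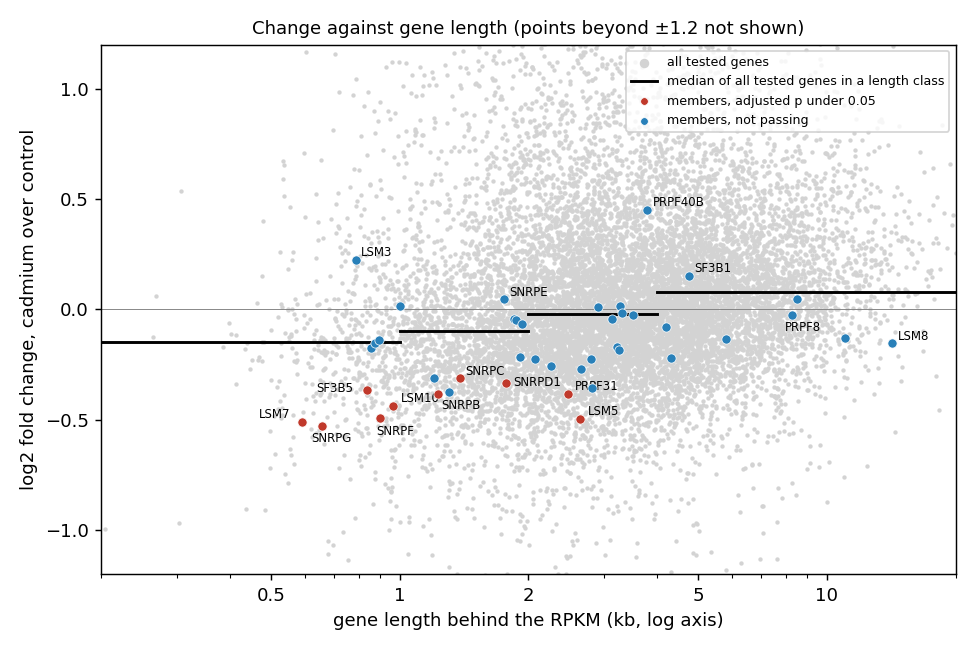
Log2 fold change, cadmium over control (vertical axis), against the gene length behind the RPKM (kb, log axis) for all tested genes in grey and 43 members in red where adjusted p was under 0.05 and blue otherwise, with black bars for the median of all genes in each length class. The bars climb from -0.15 under 1 kb to 0.080 over 4 kb, and 8 of the 10 red points lie under 2 kb and below their bar.

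Among 6 tested noncoding RNAs, listed as signs of RNA quality, 2 passed as higher (33.3%, against 8.85% of all tested genes) and 0 as lower. MALAT1 rose by 0.87 (adjusted p = 0.00188) and NEAT1 by 0.59 (adjusted p = 0.0228). The list of 7 rows summed to 1548 and 1572 CPM with cadmium, against 974 and 1166 CPM in control. NEAT1 missed the threshold without either cadmium replicate (adjusted p = 0.0570 and 0.0581). Of 15 proliferation genes 4 fell (26.7%, against 7.66% of all tested genes) and 0 rose. Among the 4 were the cyclin genes CCNB1 (log2 fold change -0.51) and CCNA2 (-0.50) and the survivin gene BIRC5 (-0.47). The 15 summed to 4871 and 4827 CPM with cadmium, against 5272 and 5347 CPM in control, with 1 lower without cadmium replicate 1 and 2 without cadmium replicate 2. The part of RNA quality or proliferation in the members' change was not tested.

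Splicing genes outside the symbol rule were read from lists by step. Of 18 further U1, U2 and 3′ splice site proteins 6 fell (33.3%) and 0 rose, with a median log2 fold change of -0.23. Over all tested genes 7.66% fell and 8.85% rose, with a median of 0.0019. U2AF1, which reads the AG at the intron's end, had 167.8 and 175.1 CPM with cadmium, against 239.9 and 252.9 CPM in control, and fell by 0.52 (SE 0.080, adjusted p = 0.00776). U2AF2, its partner on the polypyrimidine tract, fell by 0.45 (adjusted p = 0.00963) to 485.3 and 505.8 CPM with cadmium, against 666.8 and 690.2 CPM in control. SF1, which recognises the branch point before U2 arrives, also fell by 0.45 (adjusted p = 0.0101), with 232.0 and 237.2 CPM with cadmium, against 314.0 and 329.3 CPM in control. In all 3 the groups were well apart. LUC7L2, PUF60 and DDX42 were the remaining 3 that fell. Without cadmium replicate 1 the list had 1 lower gene, with SF1 at adjusted p = 0.0632 and U2AF2 at 0.0638, and without cadmium replicate 2 it had 3.

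Of 13 other tri-snRNP proteins 3 fell (23.1%, against 7.66% of all tested genes) and 0 rose (median -0.14). AAR2, known from yeast as a chaperone of the PRPF8 counterpart, fell by 0.53 (adjusted p = 0.0118). TXNL4A, a small U5 protein, fell by 0.51 (adjusted p = 0.01003), and SART1 by 0.27 (adjusted p = 0.0462). The helicase gene SNRNP200 had 544.0 and 578.4 CPM with cadmium, against 546.3 and 550.1 CPM in control, with overlapping groups. Without either cadmium replicate 1 of these genes was lower. Of 9 proteins of the U11/U12 minor spliceosome PDCD7 fell by 0.47 (adjusted p = 0.0308) and SNRNP25 by 0.40 (adjusted p = 0.0447). The median was -0.16 and 0 rose. The 2 that fell were 22.2%, against 7.66% of all tested genes. That count was 1 without either control and 0 without either cadmium replicate, with DESeq2 and with a replicate block.

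For the later steps, 27 proteins of the PRP19 complex and the catalytic spliceosome were read, with a median of -0.11. BUD31 fell by 0.40 (SE 0.091, adjusted p = 0.0240) and 0 rose. The share lower was 3.70%, below the 7.66% of all tested genes, so this count says nothing particular of the list. Of 5 exon junction complex genes, whose products mark spliced exon boundaries, MAGOH (-0.44, adjusted p = 0.0492) and EIF4A3 (-0.34, adjusted p = 0.0369) fell. These 2 were 40% of that list, against 7.66% of all tested genes. Without either cadmium replicate neither BUD31 nor these 2 passed, and MAGOH also missed the threshold without control replicate 1 (adjusted p = 0.0878). The difference between early and late steps was not tested.

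Sm proteins are methylated and loaded onto RNA by the SMN machinery. In its list DDX20 (Gemin3), a helicase, fell by 0.65 (SE 0.15, adjusted p = 0.0228) and 14 of 15 rows did not pass. The 6.67% that fell is near the 7.66% of all tested genes, so this count says nothing particular of the list. DDX20 had 28.16 and 26.01 CPM with cadmium, against 48.2 and 36.1 CPM in control. Its controls were far from each other, and it missed the threshold without control replicate 1 (log2 fold change -0.41, adjusted p = 0.0655) and without either cadmium replicate, while 5 genes of the list were lower without control replicate 2. SMN1 and SMN2, near-identical copies, carry the same reads in the table. Of 11 decapping partners of the LSM1 to LSM7 ring 0 passed with edgeR, DESeq2 or limma-voom. An unadjusted edgeR p under 0.05 was found for 3, against 4642 of all 13663 tested genes, so this count says nothing particular of them. Of 4 U7 partners CASP8AP2, needed for histone transcript processing, rose by 0.42 (SE 0.11, adjusted p = 0.0308). This 1 gene was 25% of the list, where 8.85% of all tested genes rose. CASP8AP2 moved against the direction of LSM10 and did not pass without either cadmium replicate.

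The authors' deposited table lists 10 members with an adjusted p under 0.05, all with a negative log ratio. Of them 9 are among the 10 named above. That table rests on the same 4 libraries, and its share of all genes that passed was not counted. In the authors' deposited table PRPF19 passed (adjusted p = 0.0475) and LSM5 did not (adjusted p = 0.0723).

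The number of members that passed changed with the library left out and with the scaling, and so did the number of all genes that passed. Fewer of all tested genes were lower without either cadmium replicate, and more without control replicate 2. Without cadmium replicate 1, and likewise without cadmium replicate 2, LSM7 alone passed, with adjusted p = 0.0459 and 0.0494. Without control replicate 1 the count was 8 and without control replicate 2 it was 13, with LSM1, SF3B4 and SNRPB2 added. LSM7 passed in all 14 refits, SNRPB in 12, SNRPF, SNRPG and LSM10 in 11, SF3B5 and PRPF31 in 10, LSM5 and SNRPC in 6 and SNRPD1 in 5. All 10 kept a negative log2 fold change in every refit, and 0 members were higher in any.

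**Figure D4:**
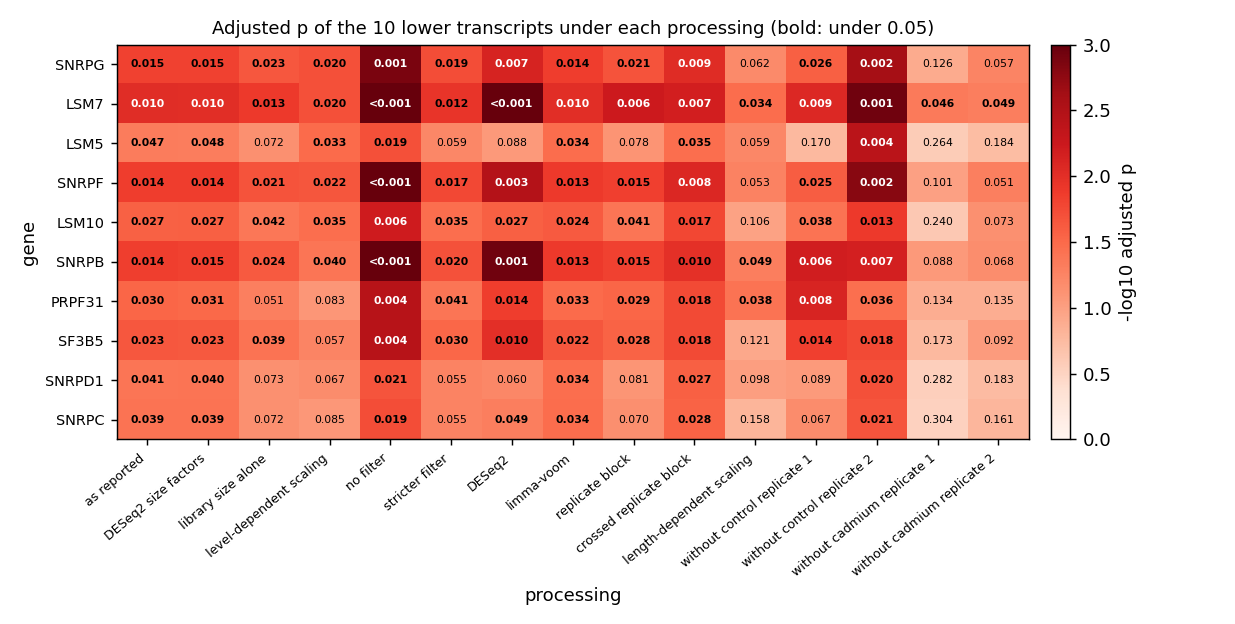
Adjusted p of the 10 transcripts that fell (rows) under the processing as reported and 14 alternatives (columns), with colour for -log10 of the adjusted p and bold figures under 0.05. LSM7 is bold in every column, and in the last 2 columns, each without 1 cadmium library, it is the only one.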

How the data were processed

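RNA was measured in 2 cadmium and 2 control libraries. Extraction used RNeasy columns and library preparation the TruSeq RNA kit, per the labels' protocols. STAR 2.4, DESeq, DESeq2 and hg19 appear in the submitters' processing notes without roles. For the counter, annotation and strand setting, a description is not given in the sources used here. As deposited, the files hold the authors' whole-number read counts per RefSeq gene for each library and RPKM, per the file headers, and a comparison table with mean RPKM, a log ratio, taken here as log2, and p-values. Rows were joined by RefSeq identifier.

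Counts were tested with edgeR 4.0.16 in R 4.3.3 (filterByExpr, TMM, robust quasi-likelihood test, group as the single term) over 13663 genes, with Benjamini-Hochberg adjustment and a threshold of 0.05. CPM carry TMM factors, and each SE is the log2 fold change divided by the root of its F statistic. Fold changes are cadmium over control. The procedure was tested on simulated data. The members, gene lists and motifs were chosen with earlier results of these data known. Named genes are the members that passed, the 2 largest changes of each name family and the most abundant member of each role, with up to 3 passing genes of each list; further members are named, and 1 member and 1 marker are not reported here by name. Promoter windows came from RefSeq GRCh38.p14 and were kept where the start site was within 100 bases of the gene's 5′ end. Pseudogene names came from GENCODE v29. Length is the gene length implied by reads and RPKM.

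Alternatives were DESeq2 size factors, library size alone, level-dependent scaling (voom with cyclic loess), no filter, a filter of 5 CPM in 2 libraries, DESeq2 1.42.0, limma-voom (limma 3.58.1), the replicate number as a block, each library left out and an adjusted p of 0.01. A crossed block and length-dependent scaling (lowess offsets) were added after seeing the data. Counting floors (3 reads) cover counting error only.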

Additional observations from a re-analysis of the deposited data

How the results depend on the processing

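With 2 libraries a group the calls rest on few degrees of freedom, and a group reduced to 1 library was assumed to vary like the other. Of 1293 recomputed values, 1033 kept their direction and their side of the threshold or moved by less than the stated limits. Without the replicate numbers as a block 10 members fell, and with the replicate block 7 did. Same-numbered libraries did not deviate together (r = -0.186 over 13663 genes). With 2 libraries a group this is 1 contrast, so it cannot decide whether the numbers pair libraries. With the numbers crossed, an alternative chosen after seeing the data like length-dependent scaling, 11 members and 1471 of all genes were lower and 1551 higher. With library size alone 67.9% of all calls were higher, against 53.6% as reported. Members lower numbered 10 with DESeq2 size factors, 11 with no filter, 7 with the stricter filter, 8 with DESeq2 and 11 with limma-voom, where the cause was not tested. The shallowest library had 8609243 reads, in which 3 reads are 0.348 CPM.

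The count of all genes higher (1209 as reported) was 233 with adjusted p under 0.01 and 369 to 1977 with 1 library left out. The count of all genes lower (1046 as reported) was 682 with library size alone, 149 with adjusted p under 0.01 and 235 to 1791 with 1 library left out. The median of all genes (0.0019) was 0.060 with library size alone, -0.0055 with level-dependent scaling, 0.038 with no filter, 0.010 with stricter filtering, 0.034 with DESeq2, -0.0043 with length-dependent scaling and 0.0018 to 0.010 with 1 library left out. The count of members lower (10 as reported) was 6 with library size alone and level-dependent scaling, 4 with length-dependent scaling, 1 with adjusted p under 0.01 and 1 to 13 with 1 library left out. The median of members (-0.16) was -0.10 with library size alone. The SNRP median (-0.31) was -0.25 with library size alone, -0.23 with level-dependent scaling, -0.19 with length-dependent scaling and -0.34 to -0.21 with 1 library left out. The SF3A and SF3B median (-0.14) was -0.078 with library size alone, -0.050 with level-dependent scaling and -0.20 to -0.10 with 1 library left out. The LSM median (-0.23) was -0.17 with library size alone, -0.19 with stricter filtering, -0.26 with length-dependent scaling and -0.25 to -0.20 with 1 library left out. The PRPF median (-0.043) was 0.016 with library size alone, -0.11 with length-dependent scaling and -0.12 to 0.038 with 1 library left out. The Sm core count lower (4 as reported) was 1 with length-dependent scaling, 0 with adjusted p under 0.01 and 0 to 4 with 1 library left out. The U2 proteins count lower (1 as reported) was 0 with level-dependent scaling and adjusted p under 0.01 and 0 to 3 with 1 library left out. The LSM2 to LSM8 ring count lower (2 as reported) was 1 with library size alone, stricter filtering, DESeq2, the replicate block, length-dependent scaling and adjusted p under 0.01 and 1 to 2 with 1 library left out. The tri-snRNP proteins count lower (1 as reported) was 0 with library size alone, level-dependent scaling and adjusted p under 0.01 and 0 to 1 with 1 library left out. The other U1, U2 and 3′ splice site count lower (6 as reported) was 2 with adjusted p under 0.01 and 1 to 9 with 1 library left out. The other U1, U2 and 3′ splice site median (-0.23) was -0.32 to -0.18 with 1 library left out. The other tri-snRNP count lower (3 as reported) was 0 with adjusted p under 0.01 and 1 to 3 with 1 library left out. The other tri-snRNP median (-0.14) was -0.085 with library size alone, -0.061 with level-dependent scaling, -0.10 with stricter filtering and -0.16 to -0.10 with 1 library left out. The U11/U12 count lower (2 as reported) was 1 with library size alone, level-dependent scaling, stricter filtering and length-dependent scaling, 0 with DESeq2, the replicate block and adjusted p under 0.01 and 0 to 1 with 1 library left out. The PRP19 and catalytic count lower (1 as reported) was 3 with no filter and limma-voom, 4 with the crossed block, 0 with adjusted p under 0.01 and 0 to 3 with 1 library left out. The SMN machinery count lower (1 as reported) was 3 with no filter and the crossed block, 2 with limma-voom, 0 with adjusted p under 0.01 and 0 to 5 with 1 library left out. The SMN machinery median (-0.19) was -0.26 to -0.12 with 1 library left out. The decapping count lower (0 as reported) was 1 with no filter, the crossed block and length-dependent scaling and 0 to 1 with 1 library left out. The U7 partner count higher (1 as reported) was 0 with the replicate block, length-dependent scaling and adjusted p under 0.01 and 0 to 1 with 1 library left out. The exon junction count lower (2 as reported) was 0 with library size alone, stricter filtering, length-dependent scaling and adjusted p under 0.01, 1 with level-dependent scaling, DESeq2 and the replicate block and 0 to 2 with 1 library left out. The exon junction median (-0.20) was -0.14 with library size alone, -0.26 with length-dependent scaling and -0.27 to -0.17 with 1 library left out. The proliferation count lower (4 as reported) was 1 with adjusted p under 0.01 and 1 to 4 with 1 library left out. The proliferation median (-0.14) was -0.081 with library size alone, -0.035 with level-dependent scaling, -0.10 with stricter filtering, -0.17 with length-dependent scaling and -0.19 to -0.10 with 1 library left out. The noncoding RNA count higher (2 as reported) was 1 with adjusted p under 0.01. The noncoding RNA median (0.43) was 0.49 with library size alone, 0.54 with level-dependent scaling and 0.47 with stricter filtering. It was 0.38 with length-dependent scaling and 0.26 to 0.50 with 1 library left out. PRPF4B turned to -0.093 with length-dependent scaling and -0.059 to 0.16 with 1 library left out. PRPF8 turned to 0.035 with library size alone, 0.094 with level-dependent scaling, 0.015 with stricter filtering and -0.12 to 0.077 with 1 library left out. SF3B2 turned to -0.017 to 0.040 with 1 library left out. SNRPA turned to 0.015 with library size alone, 0.053 with level-dependent scaling and 0.031 with length-dependent scaling.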
